A study of Erythranthe nudata with 6 samples.

Results

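A set of 75 genes was read at low level in every wild-type library of Mimulus nudatus ovule tissue and was absent or nearly absent from the mutant libraries. They were picked from the 28064 genes of the count table by a rule on CPM, the read count of a gene divided by the library's total count and multiplied by 1000000. Each gene had at least 0.5 and less than 10 CPM in each of the 3 wild-type libraries, and the counts of the 3 mutant libraries summed to at most 3. The rule used the levels in both genotypes, so the loss in the mutant is a description of how the genes were chosen and was not tested.

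The libraries came from the replum, the central tissue that bears the ovules, together with the ovules, of open flowers of Mimulus nudatus, a monkeyflower that the labels also list as Erythranthe nudata. The plants went back to the inbred line GMR2, in which plants with carpel-like ovules had appeared by chance. Those plants served as pollen donors in crosses with wild-type plants. The trait was recessive, and 150 F2 plants were screened by phenotype and genotype, from which 3 homozygous wild-type and 3 homozygous mutant plants were taken. Each library was made from 1 plant, with 6 gynoecia pooled and the ovary walls removed, so it mixed ovule cells of all kinds with replum tissue. The series title names the mutant Medusa, and neither the mutated gene nor the number of independent mutant lines is given in the sources used here.

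An ovule consists of a nucellus enclosed by one or more integuments, which become the seed coat, and it houses the female gametophyte with its egg cell, central cell and synergids. In carpel-like ovules, integument tissue takes on features of the carpel, the organ that forms the ovary. A transcript made in few cells of an ovule is diluted by all other cells in such a sample. In bulk tissue, fewer cells of a type and less RNA per cell cannot be told apart.

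The table identifies genes by identifiers that start with MgTOL and pairs none of them with a name, a function or a position. Roles of the genes are therefore not given, the tissue could not be checked against marker genes, and the lists of ovule, gametophyte, carpel and pollen genes drawn up for this comparison could not be matched. Library totals went from 35487055 to 45149217 counts, which makes 1 read worth 0.0221 to 0.0282 CPM. When mutant libraries were left out of the choice, 21.5% of the chosen genes reached 0.5 CPM in replicate 1. The shares were 3.96% in mutant replicate 2 and 7.07% in mutant replicate 3, without a test between libraries. Values of mutant replicate 1 are given separately where they bear on a result.

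All 75 genes were clearly above the counting limit in the wild type, at 21 to 408 reads in a library. Mean wild-type levels had a median of 2.16 CPM, an interquartile range of 1.44 to 3.69 CPM and extremes of 0.664 and 8.77 CPM. The median gene had 2.78, 1.82 and 1.501 CPM in wild-type replicates 1, 2 and 3. Together the genes took 9924, 8667 and 6466 reads in these libraries, or 202 ± 56.1 CPM (SD, n = 3). In mutant replicates 1, 2 and 3 they took 12, 32 and 21 reads, or 0.565 ± 0.310 CPM (SD, n = 3).

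**Figure D1:**
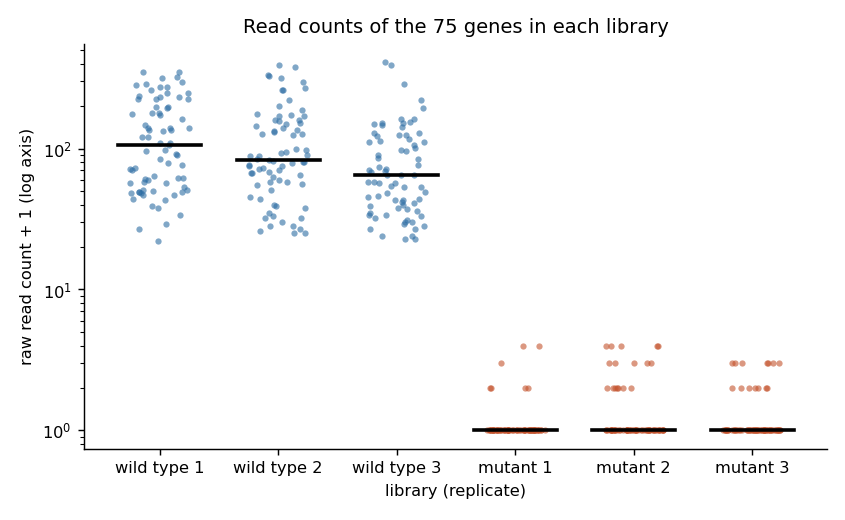
Raw read count plus 1, on a log axis, of each of the 75 genes in each library, with wild-type libraries in blue, mutant libraries in orange and the median as a black bar. Every wild-type count was at least 21, and no count in a mutant library was above 3.

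In the mutant, 39 of the 75 genes (52.0%) had 0 reads in all 3 libraries. A further 16 genes had 1 read in total, 11 had 2 and 9 had 3. Had the mutant plants held the wild-type levels, the 3 mutant libraries would have given between 78.8 and 1039 reads per gene, with a median of 256. The 65 reads seen were 0.271% of the 23951 reads that the wild-type levels would have given over all 75 genes. For the 39 genes at 0, a limit of 3 reads over the mutant libraries, or 0.0253 CPM, bounds the fall of each gene from below. These bounds had a median of 88.4-fold, and the genes were lower by at least 28.1-fold in the weakest case and at least 334-fold in the strongest. For the 36 genes with 1 to 3 reads, the ratio of pooled wild-type to pooled mutant level ranged from 45.6 to 605, with a median of 147. The smallest of these ratios had an exact 95% interval of 15.3 to 224 and belonged to a gene with 48, 74 and 23 wild-type reads and 0, 3 and 0 mutant reads. The largest had an interval of 108 to 23935 and belonged to a gene with 223, 266 and 152 wild-type reads and 0, 1 and 0 mutant reads. Intervals and limits cover counting error only, and they make no allowance for the choice of genes on these same counts.

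The few residual reads of a gene mostly lay in a single library. Of the 36 genes with any mutant read, 34 had reads in 1 mutant library only, 2 in 2 libraries and 0 in all 3. For the 16 genes with 1 read it could not be otherwise. All 11 genes with 2 reads had both in the same library, and the 2 genes read in 2 libraries had 3 reads each. Reads confined to 1 library were found for 6 genes in mutant replicate 1, for 16 in replicate 2 and for 12 in replicate 3. The summed residue was 0.292 CPM in replicate 1 (exact Poisson 95% interval 0.151 to 0.511), 0.902 in replicate 2 (0.617 to 1.27) and 0.4999 in replicate 3 (0.309 to 0.764). These intervals, like those of the ratios above, take reads as independent of each other, which was not tested. Mutant replicate 2 held 49.2% of the residual reads and 29.9% of the mutant sequencing depth. Replicate 1 held 18.5% of the residual reads and 34.6% of the depth. The limit of 3 reads on the sum removed genes with more reads in any mutant library, which can affect this split. A difference between the libraries was not tested. The genes read in 2 mutant libraries had 48, 87 and 284 wild-type reads with 0, 1 and 2 mutant reads, and 258, 125 and 100 wild-type reads with 1, 0 and 2 mutant reads.

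The gene named by a rule on level and steadiness was MgTOL.C1316.v5.0, which had both the highest mean level and the smallest spread between wild-type plants among the 39 genes at 0. It had 348, 315 and 391 reads in wild-type replicates 1, 2 and 3, and 0 reads in every mutant library. These wild-type counts correspond to 9.21, 6.98 and 9.17 CPM, or 8.45 ± 1.28 CPM (SD, n = 3). The steady wild-type level is what it was named for, and the rule itself keeps the genotypes from overlapping, which was also the case, with lower mutant levels, for 17.4% of all tested genes. In mutant tissue it was at least 334-fold lower on total counts. With library sizes adjusted by trimmed mean of M-values factors, the bound was 290-fold. The bound on total counts became 218-fold without mutant replicate 1 and 216-fold without mutant replicate 3, since fewer mutant reads raise the limit.

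Another 3 genes of the set exceeded a mean of 5 CPM. The most abundant had 315, 379 and 408 wild-type reads, or 8.77 ± 0.697 CPM (SD, n = 3), and 0, 3 and 0 mutant reads. Another had 135, 390 and 221 wild-type reads, or 5.80 ± 2.59 CPM, and no mutant read. The last was the gene with the largest ratio above, at 5.12 ± 1.35 CPM. At the other end of the set, the gene with the lowest mean had 26, 24 and 33 wild-type reads, or 0.664 ± 0.123 CPM, and 1 read in mutant replicate 1. The lowest of the genes at 0 had 21, 31 and 38 wild-type reads, or 0.711 ± 0.169 CPM.

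MgTOL.B0469.v5.0 was singled out after the values were seen, as the gene with the widest range among wild-type plants. It had 346, 29 and 116 reads in wild-type replicates 1, 2 and 3 and 0 reads in every mutant library. The wild-type levels were 9.15, 0.642 and 2.72 CPM, a 14.3-fold range, with a mean of 4.17 ± 4.44 CPM (SD, n = 3). In mutant tissue its level was at least 165-fold lower on total counts, and at least 136-fold lower with the adjusted library sizes. The bound on total counts was 66.4-fold without wild-type replicate 1, 108-fold without mutant replicate 1 and 106-fold without mutant replicate 3.

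Genes of this wild-type level mostly kept their transcripts in the mutant. In the whole table, 5323 genes had 0.5 to below 10 CPM in each wild-type library, and the 75 genes were 1.41% of them. The median mutant level of the 5323 genes was 80.6% of the wild-type level, on total counts pooled over the libraries, and 3712 of them (69.7%) lay between 50% and 200%. The share lost was 2.62% of the 344 genes with a wild-type mean from 0.5 to below 1 CPM, 2.10% of 1142 from 1 to below 2 CPM, 1.59% of 2392 from 2 to below 5 CPM and 0.277% of 1445 from 5 to below 10 CPM. A fixed limit of 3 reads is easier to meet for a gene with a lower level. Among genes with at least 10 CPM in each wild-type library, 19 of 10124 (0.188%) met the same mutant limit, and 20 more genes that met it had wild-type levels on both sides of 10 CPM.

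**Figure D2:**
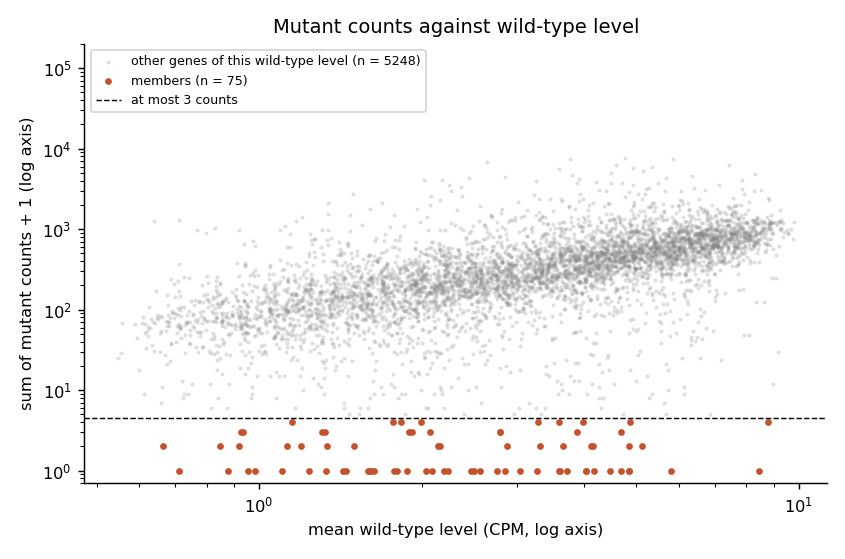
Sum of the counts of the 3 mutant libraries plus 1 against the mean wild-type level in CPM, both on log axes, for the 5323 genes with 0.5 to below 10 CPM in each wild-type library. The 75 genes of the set, in orange, lie below the dashed line by the rule, and most grey genes follow the wild-type level.

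No gap in the counts set the 75 genes apart from the rest. Going up in mutant reads, 39 genes of this level had 0, 36 had 1 to 3, 69 had 4 to 10, 142 had 11 to 30 and 692 had 31 to 100. Just inside the mutant limit, 9 genes had a sum of 3 reads and wild-type means of 1.15 to 8.77 CPM. Just outside it, 9 genes had a sum of 4 reads and wild-type means of 1.47 to 6.85 CPM. The gene nearest to the lower wild-type limit from inside had 0.516 CPM in its lowest wild-type library, and the nearest from outside had 0.493 CPM, both with 0 mutant reads. At the upper limit, the nearest gene inside reached 9.57 CPM and the nearest outside 11.1 CPM. At most 3 mutant reads were also found for 55 genes whose lowest wild-type level was from 0.25 to below 0.5 CPM.

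The opposite pattern was rare. With the genotypes exchanged in the rule, 2 of 4494 genes (0.0445%) with 0.5 to below 10 CPM in each mutant library had at most 3 wild-type reads. MgTOL.D1011.v5.0 had 81, 78 and 30 mutant reads, or 1.63 ± 0.800 CPM (SD, n = 3), and 1, 0 and 1 wild-type reads. MgTOL.L0105.v5.0 had 49, 29 and 68 mutant reads, or 1.21 ± 0.401 CPM, and 0, 0 and 1 wild-type reads. Omitting mutant replicate 1 raised the number of such genes to 13, omitting wild-type replicate 3 raised it to 8, and omitting any other library gave 2 or 3.

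Mutant libraries were also left out of the choice, 1 at a time. For this, genes were chosen on the wild-type levels and on at most 2 reads over 2 mutant libraries, and the remaining mutant library was read afterwards. With mutant replicate 2 left out, 101 genes were chosen, and 77 of them (76.2%) had at most 3 reads in replicate 2, while 4 (3.96%) reached 0.5 CPM there. With mutant replicate 3 left out, 70 of 99 genes (70.7%) had at most 3 reads in it, and 7 (7.07%) reached 0.5 CPM. With mutant replicate 1 left out, 71 of 121 genes (58.7%) had at most 3 reads in it, and 26 (21.5%) reached 0.5 CPM. The median count in the left-out library was 0 in each case. Genes of the set made up 72 of the 101, 68 of the 99 and 69 of the 121. These readings therefore largely cover the same genes and are not independent of each other. For each left-out library, the share with at most 3 reads among all genes of these wild-type levels is not given here. Whether the shares above exceed that background was not tested.

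Among the left-out mutant libraries, replicate 1 had the largest share of genes at 0.5 CPM or more. Its 26 genes had between 23 and 282 reads in mutant replicate 1, at a median of 1.52 CPM, and 14 of them had 0 reads in both other mutant libraries. Their level in replicate 1 was 75.5% of the wild-type mean at the median gene, from 7.44% to 484%, and 17 of the 26 reached at least 50%. Another 24 genes had more than 3 reads but less than 0.5 CPM in replicate 1. None of these 50 genes belongs to the 75, since the rule counts reads of all mutant libraries. With 1 library left out at a time, these shares carry no test between libraries.

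**Figure D3:**
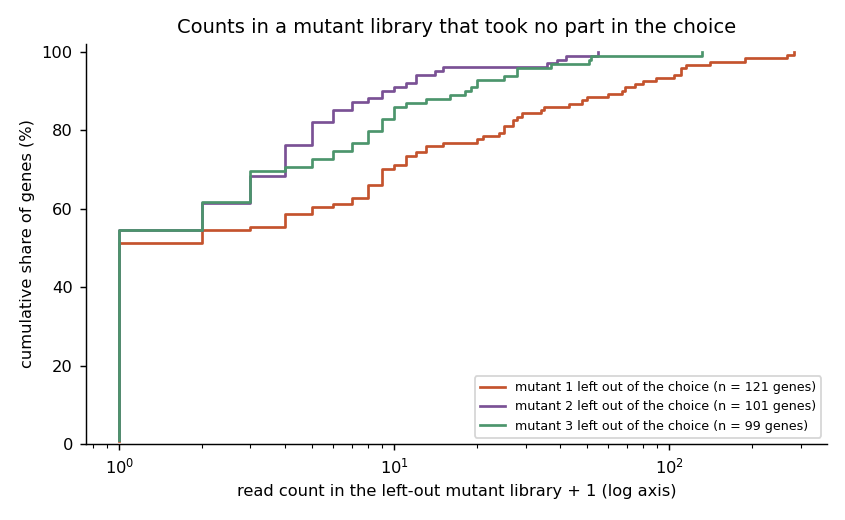
Cumulative share of genes, in percent, against the read count plus 1 (log axis) in the mutant library that took no part in choosing them, with 1 line for each left-out mutant library. The line of mutant replicate 1 runs below the others, with 58.7% of its 121 genes at 3 reads or fewer.

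The wild-type plants differed among themselves in these genes. Their level was highest in wild-type replicate 1 for 45 of the 75 genes (60.0%), in replicate 2 for 22 (29.3%) and in replicate 3 for 8 (10.7%). Among the 5248 other genes of the same wild-type level the shares were 50.1%, 30.0% and 19.9%. Replicate 1 was also highest for 11 of the 19 genes (57.9%) that met the mutant limit from at least 10 CPM in each wild-type library, and for 16 of the 20 (80.0%) with wild-type levels on both sides of 10 CPM. With library sizes adjusted by trimmed mean of M-values (TMM) factors, the shares were 52.0%, 32.0% and 16.0% for the 75 genes and 37.5%, 35.4% and 27.1% for the others. The median log2 ratio of replicate 1 to replicate 3 was 0.86 for the 75 genes and 0.37 for the others, on total-count CPM. The ranking held for genes with and without residual reads, as 24 of the 39 genes at 0 and 21 of the 36 others were highest in replicate 1.

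The median coefficient of variation over the 3 wild-type libraries was 48.3% for the 75 genes and 31.0% for the 5248 others. It was 44.1% for the 19 genes lost from at least 10 CPM and 78.3% for the 20 with levels on both sides of 10 CPM, a definition that favours a wide spread. By level, it was 33.5% against 25.4% from 0.5 to below 1 CPM (9 and 335 genes), 47.7% against 36.0% from 1 to below 2 CPM (24 and 1118 genes) and 58.9% against 34.5% from 2 to below 5 CPM (38 and 2354 genes). The 4 genes from 5 to below 10 CPM had a median of 20.7%, against 23.1% in 1441 others. The highest wild-type level was at least 4-fold above the lowest for 17 of the 75 genes (22.7%) and for 371 of the others (7.07%). These are descriptions of 3 plants, and no test of the difference was made.

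**Figure D4:**
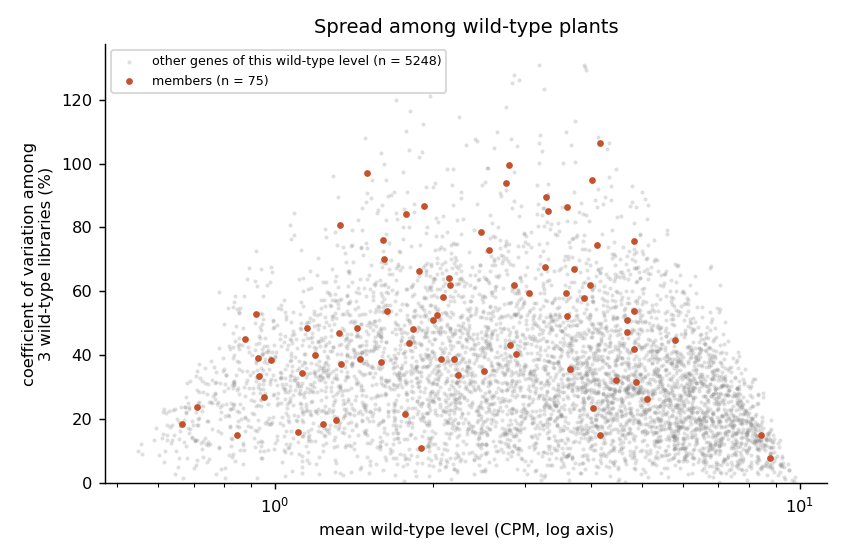
Coefficient of variation over the 3 wild-type libraries, in percent, against the mean wild-type level in CPM (log axis), with the 75 genes in orange and the 5248 other genes of the same wild-type level in grey. Orange points reach 106%, and from 2 to below 5 CPM their median is 58.9% against 34.5% for the grey points.

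Wild-type libraries were left out of the choice in the same way. Chosen on 2 wild-type libraries and on at most 3 mutant reads, 99, 100 and 104 genes were found without wild-type replicates 1, 2 and 3. In the left-out library, 13, 23 and 28 of them (13.1%, 23.0% and 26.9%) were below 0.5 CPM. Of all genes chosen on the same 2 wild-type libraries with no demand on the mutant, 4.71%, 6.47% and 7.06% were. The 75 genes have a lower median level than the others of their range, 2.16 against 3.30 CPM, and these shares were not matched on level. The left-out library held 0 reads for 5, 5 and 2 of the lost genes.

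The 75 genes were spread over the letter series of the identifiers. They came from 14 of the 15 letter series into which the identifiers fall, with at most 10 in a series. They made up 0% to 3.73% of the genes of the same level in each, against 1.41% over all series. Whether a letter stands for a chromosome is not stated in the sources used here. In the order of identifiers, 4 of the 75 genes (5.33%) had another of the set directly beside them, as 2 pairs. Of the 114 genes with at most 3 mutant reads and at least 0.5 CPM in each wild-type library, 12 lay beside another of them. Of the 5323 genes of the same wild-type level, 2093 (39.3%) lay beside another of that level. Such shares rise with the number of genes in a set, and the share for 75 genes placed at random was not computed. The first pair had 225, 31 and 75 wild-type reads in one gene and 97, 37 and 26 in the other, with 2 mutant reads and 0. The second had 108, 96 and 53 reads beside 37, 57 and 23, with 2 mutant reads in each. A further 2 pairs lay within 5 places of each other. One of these, 4 places apart, had 60, 261 and 105 reads in one gene and 47, 220 and 129 in the other, with both highest in wild-type replicate 2 and both at 0 in every mutant library.

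Genes directly beside a gene of the set, which the rule did not use, were also lower in the mutant at the median. There were 145 such flanking genes, of which 99 passed the count filter and were tested with all other genes, mutant against wild type. Their median log2 fold change was -0.20, against 0.01 for all 20305 tested genes, and 62 of the 99 (62.6%) were below 0, against 48.9% of all tested genes. With total counts as the only scaling, the median of all tested genes was -0.19 and that of the flanking genes -0.41. Levels fell in the mutant for 6 of the 99 flanking genes (6.06%, edgeR quasi-likelihood test, adjusted p below 0.05), while 246 of all 20305 tested genes, or 1.21%, did. No flanking gene rose at this threshold in edgeR, against 0.310% of all tested genes. At an unadjusted p below 0.05 in edgeR, 7 flanking genes were higher and 16 lower. The unadjusted shares over all tested genes are not given here. DESeq2 gave an adjusted p to 98 flanking genes and called 15 of them lower (15.3%), against 4.79% of all genes, and 3 higher, against 3.19% of all genes. Of the 9418 genes beside the other genes of the same level, 7364 were tested and 0.923% fell.

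Of these 6 flanking genes, 3 were as deeply lost as the genes beside them. The most abundant had 2657, 947 and 1036 wild-type reads and 0, 0 and 2 mutant reads (edgeR adjusted p = 0.0072), next to a gene of the set with 232, 169 and 151 wild-type reads. The next had 693, 229 and 225 wild-type reads and 1, 0 and 0 mutant reads (adjusted p = 0.014, edgeR), next to a gene with 95, 74 and 32. The third had 486, 234 and 302 wild-type reads and 1, 0 and 0 mutant reads (adjusted p = 0.0098, edgeR), next to a gene with 274, 150 and 149. In all 3 pairs both genes were highest in wild-type replicate 1, in reads. Every mutant library was below every wild-type library for the 3 flanking genes, as for 17.4% of all tested genes. Deep losses beside the set were not limited to genes called by edgeR. An uncalled flanking gene had 535, 264 and 243 wild-type reads with 0, 0 and 7 mutant reads. Another had 2770, 562 and 1247 with 33, 0 and 0. Further ones had 19, 40 and 19 with 0, 0 and 0, and 121, 25 and 36 with 1, 2 and 1. The edgeR adjusted p of these uncalled genes ranged from 0.052 to 0.10.

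The other 3 flanking genes were lower but retained. One had 692, 1349 and 568 wild-type reads and 141, 111 and 119 mutant reads, and its mutant mean was 15.3% of the wild-type mean (edgeR adjusted p = 0.035). Another had 756, 1027 and 1515 wild-type reads and 97, 132 and 197 mutant reads, at 13.8% (adjusted p = 0.028, edgeR). The last had 1065, 2039 and 1326 wild-type reads and 110, 119 and 244 mutant reads, at 11.3% (adjusted p = 0.019, edgeR). Most flanking genes did not share the loss, as 77 of the 99 (77.8%) had a log2 fold change of -1 or above, against 88.8% of all tested genes. Whether adjacent identifiers stand for near-identical copies or for parts of a shared transcript could not be examined without sequences. With wild-type replicate 1 left out, 1 of 101 tested flanking genes fell (0.990%), against 0.289% of all tested genes in that fit.

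**Figure D5:**
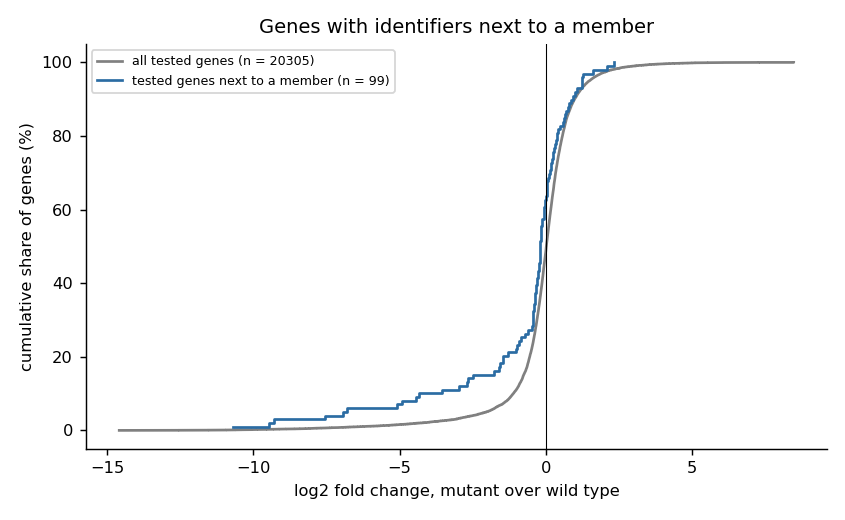
Cumulative share of genes, in percent, against the log2 fold change of mutant over wild type, for the 99 tested genes beside a gene of the set (blue) and all 20305 tested genes (grey). The blue line rises earlier on the left side, and its median is -0.20 against 0.01.

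In the test across all genes, all 75 genes passed the count filter, as their wild-type reads alone ensure. Of them, 46 were called lower in the mutant (edgeR quasi-likelihood test, adjusted p below 0.05), against 1.21% of all tested genes, and the choice of genes used the same contrast, so nothing is read from this count. The 46 were 0 of the 9 genes with a wild-type mean below 1 CPM, 8 of 24 from 1 to below 2 CPM, 34 of 38 from 2 to below 5 CPM and 4 of 4 above. All 75 had an unadjusted p below 0.05, from which nothing is read either, since the choice used this contrast. The number called was 0 without wild-type replicate 1 and 0 without wild-type replicate 2, where all 75 had an unadjusted p below 0.05 in edgeR. Over all tested genes, 60 and 62 were called lower in these fits. Leaving out wild-type replicate 3 gave 1 called gene of the 75, and 71 over all tested genes. Among the mutant libraries, omission of replicate 1 raised the number to 48 of the 75, with 404 over all tested genes. When replicate 2 of the mutant was omitted, 14 of the 75 and 131 of all tested genes were called lower. Omission of its replicate 3 gave 4 and 74. DESeq2 called all 75, against 4.79% of all genes with an adjusted p. Of all 5323 genes of this wild-type level, 71 were called lower by edgeR.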

How the data were processed

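RNA was sequenced from the replum and ovules of 3 wild-type and 3 mutant plants, with strand-specific libraries from about 100 ng of total RNA per the labels' protocols. The authors deposited raw read counts per gene, not normalized. The tools named in the submitters' processing notes are featureCounts 1.22.2, SAMtools 1.12, Picard 2.25.6, STAR 2.7.11b and Trimmomatic 0.39. The genome build, strand setting and treatment of duplicates and multi-mapping reads are not stated in those sources, and they affect near-identical copies most. The table had 0 other sample columns.

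The genes and lists were chosen with earlier results of these data known. CPM used total counts, which TMM scaling did not change for the number of genes chosen. All genes were tested once with edgeR 4.0.16 in R 4.3.3 (filterByExpr with minimum count 10 and minimum total 15, 20305 of 28064 genes kept, TMM, glmQLFit, glmQLFTest, two-sided, a model with genotype alone) with Benjamini-Hochberg adjustment, after a check on simulated data. DESeq2 1.42.0, limma 3.58.1 (voom), other scalings and filters, a replicate block and omission of each library were alternatives.

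For a table without gene names, the rule named the gene with the highest wild-type mean and that with the smallest coefficient of variation among genes at 0 in the mutant, and both were the same gene. Flanking genes are the neighbours in the order of identifiers within a letter series, and this step was added after the data were seen. Replicates are separate plants. Fold bounds divide the mean wild-type CPM by 3 counts over the mutant libraries.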

Additional observations from a re-analysis of the deposited data

How the results depend on the processing

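The number of genes chosen was 75. It was 39 with 0 mutant reads required, 144 with up to 10 allowed, 42 with a wild-type floor of 1 CPM and 99 to 121 with a library left out. Of the 75, edgeR called 46 lower, DESeq2 75, the fit with a replicate block 0 (75 at an unadjusted p below 0.05) and the fits without 1 library 0 to 48. The choice used this contrast, so nothing is read from these counts of the 75. Over all tested genes, 246 were lower, 966 by DESeq2, 88 with the replicate block and 60 to 404 without 1 library. Nothing in the labels pairs plants by replicate number, and the correlations of deviations between libraries with the same number were 0.0943, 0.197 and -0.0266, so the block rests on the number alone, and the cause of the lower counts under the block was not tested. Genes meeting the mirrored rule numbered 4 with up to 10 wild-type reads allowed and 2 to 13 without 1 library. Genes with another of the set within 5 places numbered 8. The share of flanking genes called lower was 6.06%, 15.3% by DESeq2 and 0.990% to 9.62% without 1 library, and it was above that of all tested genes in each of these fits. Leaving a library out also lowers the degrees of freedom. Depth limits the lowest levels, since 0 reads in a mutant library allow up to 0.0714 to 0.0845 CPM.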
